A study of Mus musculus with 24 samples.

Results

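The genes described here are 10 genes of sphingolipid and glycosphingolipid synthesis, Sptlc1, Sptlc2, Cers2, Cers5, Cers6, Degs1, Ugcg, B4galt5, St3gal5 and Sgms1. They are a pathway list matched by symbol and chosen with earlier results of these data known. Each had 1 entry in the table of 56980 genes. All 10 were among the 12648 genes with enough counts to be tested. The cells were wild-type primary microglia, a macrophage type that lives in brain tissue, shaken off mixed glial cultures that had been grown from the cortex and hippocampus of neonatal mice, so other glia could carry over. They received bafilomycin A1 (BafA1), a blocker of the proton pump that acidifies lysosomes, at 50 nM, or the same share of the vehicle DMSO. RNA was taken after 1, 7, 14 or 22 h, with 3 replicates for each treatment and time, which makes 8 groups and 24 libraries. The series calls the replicates biological but does not say whether they came from separate litters or flasks, so p-values speak only of the spread among the libraries at hand, which may be technical.

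Sphingolipids are built in the endoplasmic reticulum, where serine and a fatty acyl chain are joined to a long-chain base, a ceramide synthase attaches a further acyl chain, and a desaturase turns the product into ceramide. In the Golgi, ceramide becomes sphingomyelin, or it receives glucose and then galactose to give lactosylceramide, from which sialic acid makes the ganglioside GM3 and further glycosphingolipids. These lipids are broken down in lysosomes by enzymes that work at acidic pH, and inherited loss of those enzymes causes storage disease that can affect the brain.

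Library totals ran from 1322169 to 4189077 counts. They were 3212472 to 3994333 and 2805274 to 4189077 with BafA1 at 14 and 22 h, against 2116973 to 2958590 and 1332093 to 3056773 in DMSO. Levels are given as CPM (counts scaled to a common library total), and the members' own counts per library ran from 14 (Ugcg in 1 DMSO library at 1 h) to 1301 (Degs1 in 1 BafA1 library at 22 h). The assay counts tags at the 3′ end of transcripts, so it does not separate isoforms, and levels were not compared between genes. Changes are log2 differences between BafA1 and DMSO at the same time ± SE, with calls made by edgeR's quasi-likelihood test where the adjusted p was under 0.05.

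The members took different courses. B4galt5, Ugcg, Degs1 and Sgms1 were higher with BafA1 from 7 h. Sptlc1, Sptlc2, Cers2 and Cers5 were higher at 14 h, and of these Sptlc1 and Cers2 were also called at 22 h. St3gal5, the enzyme that makes GM3, was lower at 14 and 22 h. Cers6 was lower at 22 h. After 1 h none of the 10 members was called, like every other gene (0% of all genes tested in either direction). At an unadjusted p under 0.05 it was 0 of 10 members against 3.0% of all genes, and the other tools run also called 0 members at 1 h. The 1 h differences of the members ran from -0.27 (B4galt5) to 0.32 (Sgms1), and in all 10 genes the 3 BafA1 values overlapped the 3 DMSO values, while 3.15% of all genes had BafA1 wholly above DMSO and 3.53% wholly below.

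At 7 h, 4 of 10 members had risen and 0 had fallen, against 4.57% and 2.57% of all genes tested (7.14% in either direction, 903 genes). In a fit with the replicate block (the replicate number as a further term) 1555 genes were called at 7 h and 1 member, St3gal5, had also fallen. At 14 h, 8 of 10 had risen and 1 had fallen, against 12.1% and 12.1% of all genes (24.1% together). At 22 h, 6 of 10 had risen and 2 had fallen, against 17.9% and 22.0% of all genes (39.9% together). The median log2 change of the 10 members was 0.22, 0.83 and 0.72 at 7, 14 and 22 h, beside medians of -0.02, -0.05 and -0.06 over all genes tested. For the 59 other tested genes of the pathway, described below, the medians were -0.04, 0.11 and 0.10. The members were chosen with earlier results of these data known, so these counts and medians describe the list and are no independent support. Without regard to the test, the BafA1 libraries lay wholly above the DMSO libraries in 4, 8 and 8 members at 7, 14 and 22 h, where 11.6%, 20.5% and 23.7% of all genes did so. They lay wholly below in 1, 1 and 2 members, where 11.8%, 22.5% and 24.8% of all genes did so.

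**Figure D1:**
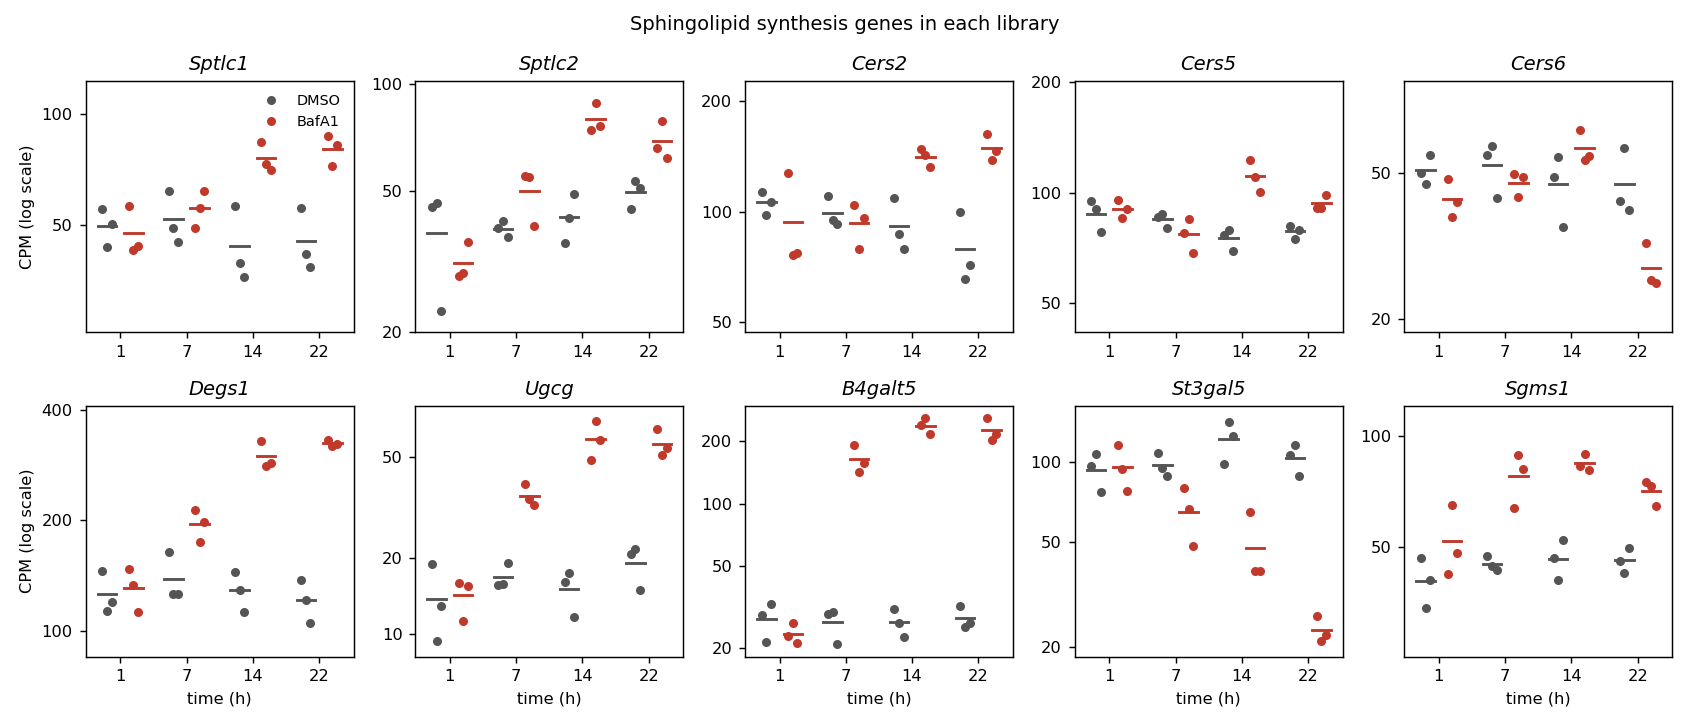
Level of each of the 10 genes in every library, in CPM on a log scale, at 1, 7, 14 and 22 h (points: the 3 replicates, set side by side; bars: group means; grey DMSO, red BafA1). B4galt5 separates from DMSO at 7 h, 142 to 191 against 20.9 to 29.8 CPM, and St3gal5 ends at 21.1 to 26.3 CPM with BafA1 against 88.3 to 116 in DMSO.

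B4galt5, which adds galactose to glucosylceramide to make lactosylceramide, changed most among the members at 7, 14 and 22 h. At 1 h its level was 29.0, 21.3 and 32.6 CPM in the 3 DMSO libraries and 22.8, 26.6 and 21.2 CPM with BafA1. At 7 h the DMSO libraries held 29.4, 29.8 and 20.9 CPM, and the BafA1 libraries 191, 142 and 157 CPM. Every BafA1 library at 7 h was thus far above every DMSO library of any time. The level at 14 h was 31.1, 26.5 and 22.7 CPM in DMSO and 238, 258 and 216 CPM with BafA1. By 22 h it was 32.1, 25.5 and 26.4 CPM in DMSO and 258, 204 and 217 CPM with BafA1. The groups stood apart at all 3 later times and the DMSO level held within 20.9 to 32.6 CPM throughout. The log2 changes were 2.61 ± 0.18 at 7 h (adjusted p = 1.04e-09), 3.16 ± 0.18 at 14 h (2.66e-12) and 2.99 ± 0.18 at 22 h (2.78e-12), which are folds of 6.11, 8.93 and 7.96. The change of the effect from 1 to 7 h was itself called, at 2.88 ± 0.26 (adjusted p = 5.87e-07), as it was for 2.23% of all genes. No difference was called from 7 to 14 h (0.55 ± 0.24, adjusted p = 0.279) or from 14 to 22 h (-0.17, 95% interval -0.67 to 0.33).

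Ugcg, the glucosylceramide synthase that takes the first step from ceramide towards the gangliosides and supplies the substrate of B4galt5, also rose from 7 h. Its levels at 1 h, 18.9, 9.34 and 12.9 CPM in DMSO and 16.0, 11.3 and 15.4 CPM with BafA1, overlapped. At 7 h DMSO held 15.6, 15.8 and 19.2 CPM and BafA1 39.1, 34.1 and 32.3 CPM. At 14 h the values were 16.1, 17.4 and 11.7 CPM in DMSO and 49.0, 69.6 and 58.3 CPM with BafA1. The lowest BafA1 library was above the highest DMSO library at both times. At 22 h DMSO held 20.7, 21.6 and 14.9 CPM and BafA1 64.6, 51.0 and 54.5 CPM, again with no overlap. The log2 changes were 1.06 ± 0.23 (adjusted p = 0.0032), 1.98 ± 0.22 (2.52e-07) and 1.58 ± 0.22 (2.95e-06), or 2.09-, 3.95- and 2.99-fold. The 7 h call was lost when all libraries numbered 1 were left out (0.92, adjusted p = 0.0939).

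St3gal5, the sialyltransferase that turns lactosylceramide into GM3 and so uses the product of B4galt5, went the other way. At 1 h it stood at 96.2, 107 and 77.2 CPM in DMSO and at 116, 93.7 and 77.9 CPM with BafA1. At 7 h the DMSO libraries held 108, 94.9 and 88.5 CPM and the BafA1 libraries 79.9, 66.7 and 48.2 CPM. The groups overlapped at 1 h and not at 7 h, where the difference was -0.59 ± 0.21 and was not called (adjusted p = 0.101). Under a replicate block, the 7 h difference was -0.60 ± 0.17 and was called (adjusted p = 0.0177). At 14 h the level was 98.4, 142 and 125 CPM in DMSO and 64.9, 38.6 and 38.6 CPM with BafA1. At 22 h it was 106, 116 and 88.3 CPM in DMSO and 26.3, 21.1 and 22.3 CPM with BafA1. All BafA1 values lay below all DMSO values at both times. The log2 change was -1.37 ± 0.21 at 14 h (adjusted p = 2.08e-05) and -2.14 ± 0.22 at 22 h (3.61e-08), so that DMSO was 2.59- and 4.42-fold higher.

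B4galt5 and St3gal5 act in sequence, and their ratio within each library does not depend on how libraries are scaled. This ratio was chosen after its values were seen and is given without a test. The log2 ratio of B4galt5 to St3gal5 counts lay between -2.46 and -1.25 in all 12 DMSO libraries and between -2.34 and -1.82 with BafA1 at 1 h. With BafA1 it was 1.09 to 1.70 at 7 h, 1.88 to 2.74 at 14 h and 3.27 to 3.29 at 22 h (3.28 ± 0.01, SD, n = 3). The sign of the ratio thus differed between every DMSO library and every BafA1 library from 7 h. It says that the 2 genes changed unequally, and a ratio of tags from 2 genes is not a ratio of their transcript numbers.

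**Figure D2:**
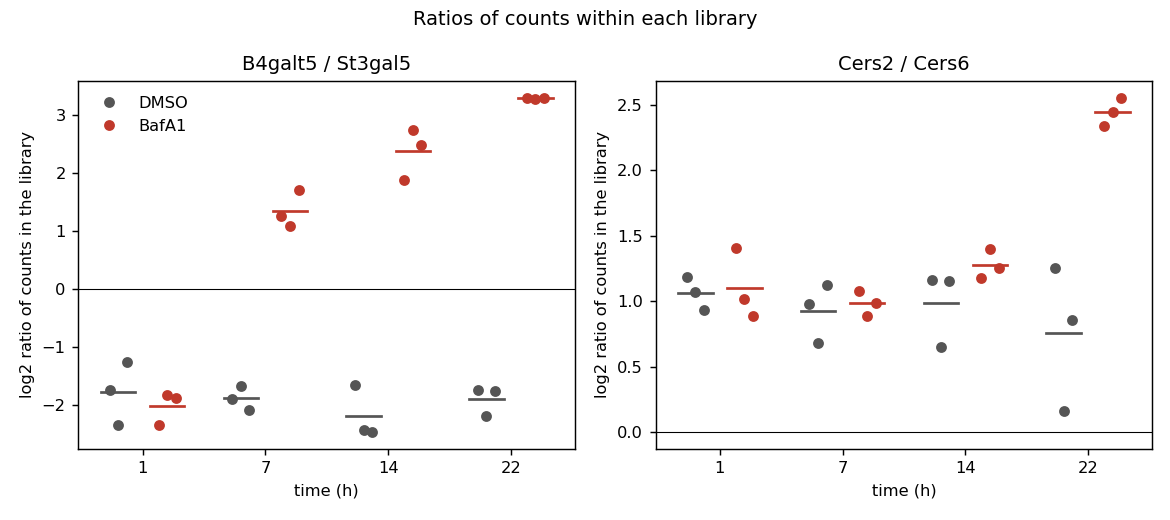
Log2 ratio of the counts of 2 genes within each library, for B4galt5 over St3gal5 and for Cers2 over Cers6, at 1, 7, 14 and 22 h (points: libraries; bars: group means; grey DMSO, red BafA1). B4galt5 over St3gal5 is below 0 in every DMSO library and reaches 3.27 to 3.29 with BafA1 at 22 h, and Cers2 over Cers6 is 2.34 to 2.55 with BafA1 at 22 h against 0.16 to 1.25 in DMSO.

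Sgms1, the Golgi sphingomyelin synthase, rose early and kept a small difference. It was the member with the largest difference at 1 h, with 46.7, 34.0 and 40.6 CPM in DMSO and 42.2, 65.1 and 48.1 CPM with BafA1, and the groups overlapped. At 7 h DMSO held 47.1, 44.2 and 43.1 CPM and BafA1 63.9, 88.9 and 81.7 CPM. At 14 h the values were 46.7, 40.5 and 52.1 CPM in DMSO and 83.1, 89.3 and 81.2 CPM with BafA1. BafA1 was wholly above DMSO at both times. At 22 h DMSO held 45.8, 42.4 and 49.7 CPM and BafA1 75.3, 73.3 and 64.7 CPM, still apart. The log2 changes were 0.79 ± 0.17 (adjusted p = 0.00282), 0.86 ± 0.16 (0.000276) and 0.62 ± 0.17 (0.00409). The 7 h call was lost without all libraries numbered 2 (0.68, adjusted p = 0.0753) and without all numbered 3 (0.74, adjusted p = 0.0869).

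Degs1, the desaturase that makes ceramide from dihydroceramide, rose at each later time. At 1 h its level was 145, 113 and 119 CPM in DMSO and 147, 134 and 113 CPM with BafA1, overlapping. At 7 h DMSO held 164, 126 and 126 CPM and BafA1 214, 175 and 197 CPM. At 14 h DMSO held 145, 129 and 113 CPM and BafA1 329, 281 and 286 CPM. The groups did not overlap at 7 h, where the lowest BafA1 library was close above the highest DMSO library, and were far apart at 14 h. The 22 h values were 137, 121 and 105 CPM in DMSO and 332, 319 and 322 CPM with BafA1, the latter nearly equal among replicates. The log2 changes were 0.50 ± 0.14 (adjusted p = 0.0346), 1.21 ± 0.14 (5.99e-07) and 1.41 ± 0.15 (2.63e-08). The 7 h call depended on single libraries: it was lost without DMSO replicate 2 (0.43, adjusted p = 0.154) or 3 (0.44, 0.123) and without BafA1 replicate 1 (0.42, 0.153) or 3 (0.48, 0.0947). It was also lost without all libraries numbered 2 (adjusted p = 0.293) or 3 (0.225), with upper-quartile scaling (0.0572), without the filter (0.165) and in libraries thinned to the shallowest (0.0572).

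Sptlc1 and Sptlc2 encode the paired subunits of serine palmitoyltransferase, the enzyme that starts the pathway. Sptlc1 stood at 61.8, 48.9 and 44.9 CPM in DMSO and 48.8, 55.6 and 61.8 CPM with BafA1 at 7 h, overlapping (0.09 ± 0.19, adjusted p = 0.873). At 14 h DMSO held 56.2, 39.3 and 36.0 CPM and BafA1 84.1, 73.1 and 70.6 CPM. At 22 h the values were 55.6, 41.7 and 38.2 CPM in DMSO and 87.0, 72.1 and 82.5 CPM with BafA1. BafA1 lay wholly above DMSO at both times, and replicate 1 was the highest DMSO library at each. The log2 changes of Sptlc1 were 0.80 ± 0.18 (adjusted p = 0.00187) and 0.82 ± 0.18 (0.000934), and the 14 h call was lost without all libraries numbered 2 (0.74, adjusted p = 0.0726). At 1 h Sptlc1 held 55.1, 43.4 and 50.3 CPM in DMSO and 56.1, 42.5 and 43.8 CPM with BafA1.

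Sptlc2 held 45.1, 46.0 and 22.9 CPM in DMSO and 28.8, 29.2 and 35.9 CPM with BafA1 at 1 h, and the third DMSO library was the lowest of the 6. At 7 h the values were 39.2, 41.0 and 37.0 CPM in DMSO and 55.1, 54.8 and 39.9 CPM with BafA1, with an overlap from 1 BafA1 library. At 14 h DMSO held 35.6, 41.8 and 48.9 CPM and BafA1 74.0, 88.8 and 76.4 CPM. BafA1 was wholly above DMSO at 14 h, with a log2 change of 0.91 ± 0.20 (adjusted p = 0.00109), a call that was lost without all libraries numbered 2 (0.80, adjusted p = 0.061). At 22 h DMSO held 44.5, 53.2 and 51.0 CPM and BafA1 65.8, 78.9 and 62.0 CPM, again without overlap. The 22 h difference of 0.48 ± 0.20 was not called (adjusted p = 0.0576), and it was called with the replicate block (0.47 ± 0.18, adjusted p = 0.0324), with DESeq2 (0.0464), with limma-voom (0.0484), in the fit of only the 6 libraries (0.0422), without the filter on low counts (0.60, 0.0427) and without all libraries numbered 3 (0.61, 0.0228).

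The 3 ceramide synthases went different ways. Cers2, which favours very long acyl chains, held 110, 94.9 and 92.8 CPM in DMSO and 105, 79.4 and 96.0 CPM with BafA1 at 7 h. At 14 h DMSO held 109, 86.8 and 79.2 CPM and BafA1 148, 143 and 133 CPM. At 22 h the values were 100, 65.6 and 71.6 CPM in DMSO and 163, 139 and 147 CPM with BafA1. The groups overlapped at 7 h (-0.08 ± 0.18) and stood apart afterwards. Cers2 rose by 0.63 ± 0.18 at 14 h (adjusted p = 0.0113) and 0.90 ± 0.18 at 22 h (0.000312). The 14 h call was lost without DMSO replicate 3 (0.55, adjusted p = 0.0621), and without all libraries numbered 2 (0.57, 0.135) or 3 (0.59, 0.112). At 1 h Cers2 held 113, 98.1 and 107 CPM in DMSO and 127, 76.4 and 77.2 CPM with BafA1, where replicate 1 lay above all DMSO libraries and the other BafA1 libraries below them.

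Cers5, which favours palmitoyl chains, was called higher at 14 h and at no other time. It held 94.6, 90.1 and 78.0 CPM in DMSO and 95.5, 85.0 and 90.1 CPM with BafA1 at 1 h. At 7 h the values were 85.7, 87.5 and 80.2 CPM in DMSO and 77.4, 84.9 and 68.5 CPM with BafA1. The groups overlapped at both times. At 14 h DMSO held 76.8, 79.0 and 69.4 CPM and BafA1 122, 110 and 101 CPM, wholly above. At 22 h DMSO held 81.0, 74.9 and 79.1 CPM and BafA1 90.6, 90.8 and 98.8 CPM, also above but closer. The log2 change was 0.56 ± 0.12 at 14 h (adjusted p = 0.00111), while the 0.25 ± 0.12 of 22 h was not called (0.115). The change of the effect from 7 to 14 h was called at 0.71 ± 0.17 (adjusted p = 0.0289), as for 2.26% of all genes, and lost without the filter on low counts (0.83, 0.123) or in thinned libraries (0.78, 0.0826). From 14 to 22 h the difference of -0.32 ± 0.17 was not called (adjusted p = 0.426).

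Cers6, which like Cers5 favours palmitoyl chains, was the only ceramide synthase among the members to fall. At 1 h it held 49.9, 46.7 and 55.9 CPM in DMSO and 48.2, 37.9 and 41.6 CPM with BafA1. At 7 h the values were 56.0, 59.1 and 42.7 CPM in DMSO and 49.6, 42.9 and 48.6 CPM with BafA1. The groups overlapped, as they did at 14 h. There DMSO held 48.7, 55.4 and 35.7 CPM and BafA1 65.6, 54.2 and 55.6 CPM (0.33 ± 0.18, adjusted p = 0.195). At 22 h DMSO held 41.9, 58.6 and 39.6 CPM and BafA1 32.1, 25.5 and 25.0 CPM, wholly below. Cers6 fell by 0.74 on the log2 scale (SE 0.19, adjusted p = 0.00332) at 22 h. The change of the effect from 14 to 22 h was -1.07 ± 0.26 and was called (adjusted p = 0.0317), as for 1.98% of all genes, and lost without the filter (-1.02, 0.105) or in thinned libraries (-0.97, 0.167). The 22 h call was lost without the filter on low counts (-0.60, adjusted p = 0.0672) and without all libraries numbered 2 (-0.53, adjusted p = 0.0942). Within libraries, the log2 ratio of Cers2 to Cers6 counts was 0.16 to 1.25 in DMSO and 2.34 to 2.55 with BafA1 at 22 h, with no overlap, and was chosen after its values were seen.

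**Figure D3:**
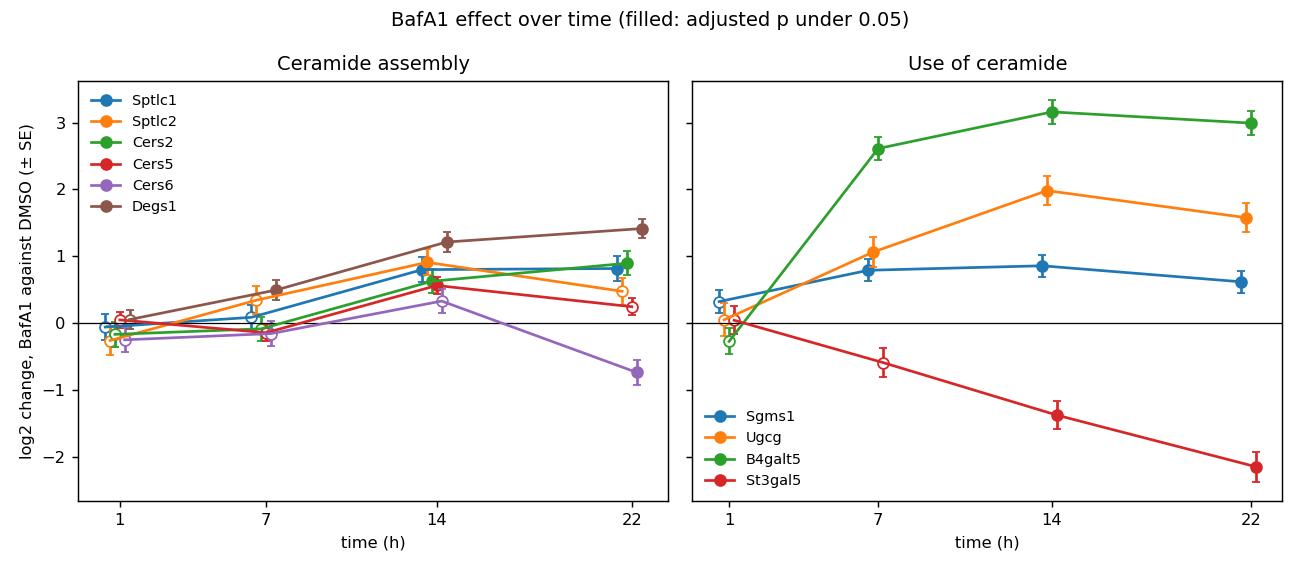
Log2 change of the 10 genes, BafA1 against DMSO at the same time, ± SE of the fit, over 1, 7, 14 and 22 h (filled points: adjusted p under 0.05; points are shifted sideways so that bars do not cover each other). The first panel holds the genes of ceramide assembly, which reach 0.33 to 1.21 at 14 h and part at 22 h into 1.41 for Degs1 and -0.74 for Cers6, and the second those that use ceramide, from 2.99 for B4galt5 to -2.14 for St3gal5 at 22 h.

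Over the whole course, the F test of treatment by time called 9 of the 10 members, against 21.2% of all genes tested. The count fell to 7 without the filter on low counts, where Cers5 (adjusted p = 0.135) and Cers6 (0.123) were lost, and to 6 in libraries thinned to the shallowest, where Sptlc1 (0.0785), Cers5 (0.082) and Cers6 (0.134) were lost. The member not called was Sgms1 (adjusted p = 0.289). Its difference at 1 h, 0.32 ± 0.17, was not called and the groups overlapped. That 1 h value ran from 0.03 to 0.56 over the alternatives listed under processing. The later differences of Sgms1 were between 0.62 and 0.86. Between successive times 1 member was called in each step: B4galt5 from 1 to 7 h, Cers5 from 7 to 14 h and Cers6 from 14 to 22 h. With the replicate block, 5 members instead of 1 were called from 7 to 14 h. These were Cers5 and, in addition, Sptlc1 (0.71, adjusted p = 0.0387), Cers2 (0.72, 0.0117), Degs1 (0.71, 0.00195) and St3gal5 (-0.81, 0.0347). The share of all genes called in that step with the block was not counted. Against DMSO the block raised the calls over all genes, from 903 to 1555 at 7 h and from 3054 to 4166 at 14 h.

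In DMSO alone, 0 of 10 members were called at 7, 14 or 22 h against 1 h, while 0.00791%, 0.15% and 0.403% of all genes were, and these 3 comparisons share the 1 h libraries. The members' DMSO differences lay between -0.41 and 0.43. The smallest adjusted p was 0.568, that of Cers2 at 22 h (-0.41, 95% interval -0.79 to -0.03), and DESeq2 and limma-voom also called 0 members. At an unadjusted p under 0.05, 0, 0 and 1 members differed. The share of all genes at that threshold was not counted for these comparisons, so these counts have no background beside them.

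The promoter windows of 4 members are shown, those of Degs1, Cers2 and Cers6, which hold the E-box CACGTG, and that of B4galt5, the member with the largest change. None of the 4 motifs searched was found in B4galt5, Sptlc1, Sptlc2, Cers5 or St3gal5. Whether a motif bears on the course of a gene was not tested. Each window runs from 250 bases before to 50 after the RefSeq start site, on the gene's strand, in build GRCm38.p6, and comes from RefSeq; capitals mark motif matches. Degs1 lies at chr1:182282146-182282445 on the minus strand, Cers2 at chr3:95314940-95315239 and Cers6 at chr2:68861191-68861490 on the plus strand, and B4galt5 at chr2:167349129-167349428 on the minus strand.
Degs1: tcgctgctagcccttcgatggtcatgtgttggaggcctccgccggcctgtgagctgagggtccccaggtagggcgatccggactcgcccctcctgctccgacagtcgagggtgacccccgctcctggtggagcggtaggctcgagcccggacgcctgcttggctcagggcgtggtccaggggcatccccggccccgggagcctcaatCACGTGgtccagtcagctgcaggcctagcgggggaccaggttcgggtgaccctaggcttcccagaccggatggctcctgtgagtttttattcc
Cers2: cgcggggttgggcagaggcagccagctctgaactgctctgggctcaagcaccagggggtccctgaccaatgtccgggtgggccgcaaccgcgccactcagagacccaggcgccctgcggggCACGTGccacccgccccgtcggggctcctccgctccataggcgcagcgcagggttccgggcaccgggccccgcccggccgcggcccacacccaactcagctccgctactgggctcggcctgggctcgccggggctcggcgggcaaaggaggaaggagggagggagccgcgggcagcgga
Cers6: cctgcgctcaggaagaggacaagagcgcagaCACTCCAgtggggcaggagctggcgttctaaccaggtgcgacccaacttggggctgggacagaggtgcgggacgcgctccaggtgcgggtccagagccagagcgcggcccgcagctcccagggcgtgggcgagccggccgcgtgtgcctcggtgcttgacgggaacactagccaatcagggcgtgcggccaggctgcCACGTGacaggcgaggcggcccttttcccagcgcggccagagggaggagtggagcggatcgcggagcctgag
B4galt5: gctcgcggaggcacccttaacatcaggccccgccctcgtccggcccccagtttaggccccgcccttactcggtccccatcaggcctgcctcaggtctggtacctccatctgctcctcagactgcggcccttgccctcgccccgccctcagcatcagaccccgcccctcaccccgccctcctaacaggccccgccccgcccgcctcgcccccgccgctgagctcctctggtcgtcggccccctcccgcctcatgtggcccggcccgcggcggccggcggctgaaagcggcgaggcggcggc

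The E-box CACGTG, its shorter overlap ACGTG (the core of hypoxia elements), the sterol element core CACNCCA and the ATF4 element core GATGCAA were searched on both strands of 14 windows, since Cers2 and Sgms1 have several start sites. CACGTG began 43 bases before the start in Degs1 (position -43), at -129 in Cers2 and at -22 in Cers6. These were 3 of 10 members (30%), beside 8.09% of 27025 genes and 7.15% of 32851 windows. ACGTG occurred in the same 3 windows and there only as part of the E-box, beside 21.8% of genes and 19.6% of all windows. CACNCCA was found in Cers6, Ugcg and Sgms1, 3 of 10 members (30%) beside 20.6% of genes, and in 5 of the 14 windows beside 18.4% of all windows. GATGCAA was found in 0 members, beside 2.89% of genes. A match describes these letters and shows no binding. The RefSeq start lay 609 bases inside the gene model of GENCODE for Degs1 and 399 for the Cers2 window shown. It lay 5 bases inside for B4galt5 and 0 for Cers6. For Cers5 it lay 370 bases inside, for Ugcg 293 and for the Sgms1 windows 1202 to 178701. The GENCODE starts of Degs1, Cers2, Cers5, Ugcg and Sgms1 thus lay outside the windows searched.

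The other genes of the pathway, 79 in 6 lists with 59 tested, moved in both directions. Of the 59, 0 were called at 1 h, 4 rose and 3 fell at 7 h (11.9% called), 14 rose and 7 fell at 14 h (35.6%), and 18 rose and 11 fell at 22 h (49.2%). With the replicate block 5 fell at 7 h and 11 at 14 h. The shares called over all genes tested were 0%, 7.14%, 24.1% and 39.9%. At 22 h, 14 of the 18 rises and 7 of the 11 falls were also called in each fit that left out 1 library, as were 3 of the 4 rises and 1 of the 3 falls at 7 h, and 8 of the 14 rises and 3 of the 7 falls at 14 h. The genes named next with a test at 22 h are among those kept unless stated.

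Among 12 tested genes of de novo ceramide synthesis and its control, 1 rose and 1 fell at 7 h, 1 and 3 at 14 h, and 3 and 4 at 22 h. Kdsr, the reductase that acts just after serine palmitoyltransferase, rose from 13.7 ± 2.07 to 69.7 ± 7.03 CPM at 22 h (SD, n = 3; log2 change 2.35 ± 0.24, adjusted p = 2.87e-08), after 1.12 at 7 h and 1.84 at 14 h. Ormdl3, an inhibitor of serine palmitoyltransferase, rose by 0.88 ± 0.24 at 22 h (adjusted p = 0.00452). Hacd4, a dehydratase of the family that elongates very long acyl chains, fell from 74.7 ± 20.5 to 12.3 ± 2.84 CPM at 22 h (-2.58 ± 0.28, adjusted p = 7.2e-08), and Tecr, the reductase of that cycle, changed by -0.86 ± 0.20 (0.00126). The genes called higher at 22 h were thus Kdsr and the inhibitors Ormdl3 and Ormdl1, and those called lower were Hacd4, Hacd3 and Tecr of chain elongation and the ceramide synthase Cers1. The calls of Ormdl1, Hacd3 and Cers1 were lost in at least 1 fit that left out a library. Under the replicate block Hacd3 had also fallen at 14 h (-0.50, adjusted p = 0.0299) and Sptssa at 22 h (-0.35, 0.0425), neither called without it.

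Of 10 genes of sphingomyelin synthesis, ceramide phosphorylation and lipid transfer, 3, 7 and 5 rose at 7, 14 and 22 h and 0 fell. Of these, 2, 3 and 5 were called in each fit that left out 1 library; Cerk was lost at 7 h, and Cerk, Plekha8, Osbp and Vapb at 14 h. Cert1, the carrier that brings ceramide from the endoplasmic reticulum to the Golgi, rose from 35.3 ± 4.98 to 138 ± 17.1 CPM at 22 h (log2 change 1.98 ± 0.16, adjusted p = 5.8e-10), after 1.41 at 7 h and 2.14 at 14 h. Samd8, a relative of the sphingomyelin synthases that makes ceramide phosphoethanolamine, rose from 39.5 ± 3.17 to 208 ± 20.7 CPM (2.39 ± 0.15, adjusted p = 1.34e-11), after 1.00 and 1.90. Vapa, a membrane anchor for such carriers, rose by 0.76 ± 0.12 (adjusted p = 1.93e-05), and Osbp, an oxysterol binding protein at the same contact sites, by 1.06 ± 0.24 (0.000891). Sgms2, the sphingomyelin synthase of the plasma membrane, was not called at any time. Gltp was called higher only under the replicate block, at 14 h (0.46, adjusted p = 0.00234) and 22 h (0.34, 0.0165).

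Of 12 tested other glycosphingolipid transferases, 0 were called at 7 h, 1 rose and 4 fell at 14 h, and 1 rose and 5 fell at 22 h. Of the 4 falls at 14 h, that of Ugt8a was called in each fit that left out 1 library, while those of B4galt6, St8sia1 and Gal3st1 were lost in at least 1; the 22 h calls were kept. With the replicate block, B4galt6 (-0.47, adjusted p = 0.0154) and St6galnac6 (-0.90, 0.0142) had fallen by 7 h. In the same fit B3galnt1 had also fallen at 14 h (-0.66, adjusted p = 0.00739). B4galt6, the other lactosylceramide synthase, fell from 83.8 ± 19.0 to 35.5 ± 4.59 CPM at 22 h (-1.25 ± 0.17, adjusted p = 2.01e-06), opposite to B4galt5 in the same libraries. B3galnt1, which makes globoside, changed by -1.18 ± 0.28 (adjusted p = 0.0013), and St8sia1, which turns GM3 into GD3, went from 5.31 ± 1.30 to 0.589 ± 0.184 CPM (-3.07 ± 0.55, 7.98e-05). The BafA1 mean of St8sia1 lay below 3 counts in a library, which is 0.765 to 1.20 CPM in those libraries, so the size of its fall is uncertain. Ugt8a, the galactosylceramide synthase of myelin-forming cells, fell from 16.2 ± 3.54 to 1.72 ± 0.589 CPM (-3.28 ± 0.36, adjusted p = 6.66e-08), and it is also on the list of oligodendrocyte markers. Its BafA1 mean was not far above that same limit. St3gal1, a sialyltransferase of glycoproteins and gangliosides, was the gene that rose, from 36.0 ± 3.90 to 72.4 ± 10.4 CPM (1.02 ± 0.17, adjusted p = 4.49e-05).

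Of 11 genes of sugar nucleotide supply, 1 fell at 7 h, 3 rose at 14 h and 5 rose at 22 h. The calls of Slc35a1 at 7 h, Cmas at 14 h and Slc35a2 at 22 h were lost in at least 1 fit that left out a library. At 22 h Galk1, which phosphorylates galactose, rose by 1.41 ± 0.22 (adjusted p = 1.41e-05). Cmas, which activates sialic acid, rose by 1.07 ± 0.14 (8.95e-07), Nans, which makes sialic acid, by 0.89 ± 0.20 (0.000761) and Ugp2, which makes UDP-glucose, by 0.80 ± 0.16 (0.0003). Of 8 tested genes of sphingosine 1-phosphate metabolism and transport, 1 fell at 7 h, 2 rose at 14 h and 4 rose at 22 h. The calls kept in each fit that left out 1 library were S1pr2 at 14 h and, at 22 h, the kinase Sphk2 (1.16 ± 0.18, adjusted p = 1.83e-05) and the receptor S1pr2 (0.87 ± 0.22, 0.00237). Those of Sgpp1 at 7 h, Sgpl1 at 14 and 22 h and Sphk1 at 22 h were lost. With the replicate block Sgpl1 had also risen at 7 h (0.48, adjusted p = 0.00035), and Sgpp1 (-0.52, 0.0252) had fallen at 14 h and S1pr3 (-2.01, 0.0216) at 22 h. Of 6 tested genes of breakdown outside lysosomes, 2 fell at 22 h, Asah2 and Gba2, and both calls were lost in at least 1 fit that left out a library; with the block Gba2 had also fallen at 14 h (-1.21, adjusted p = 0.032).

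**Figure D4:**
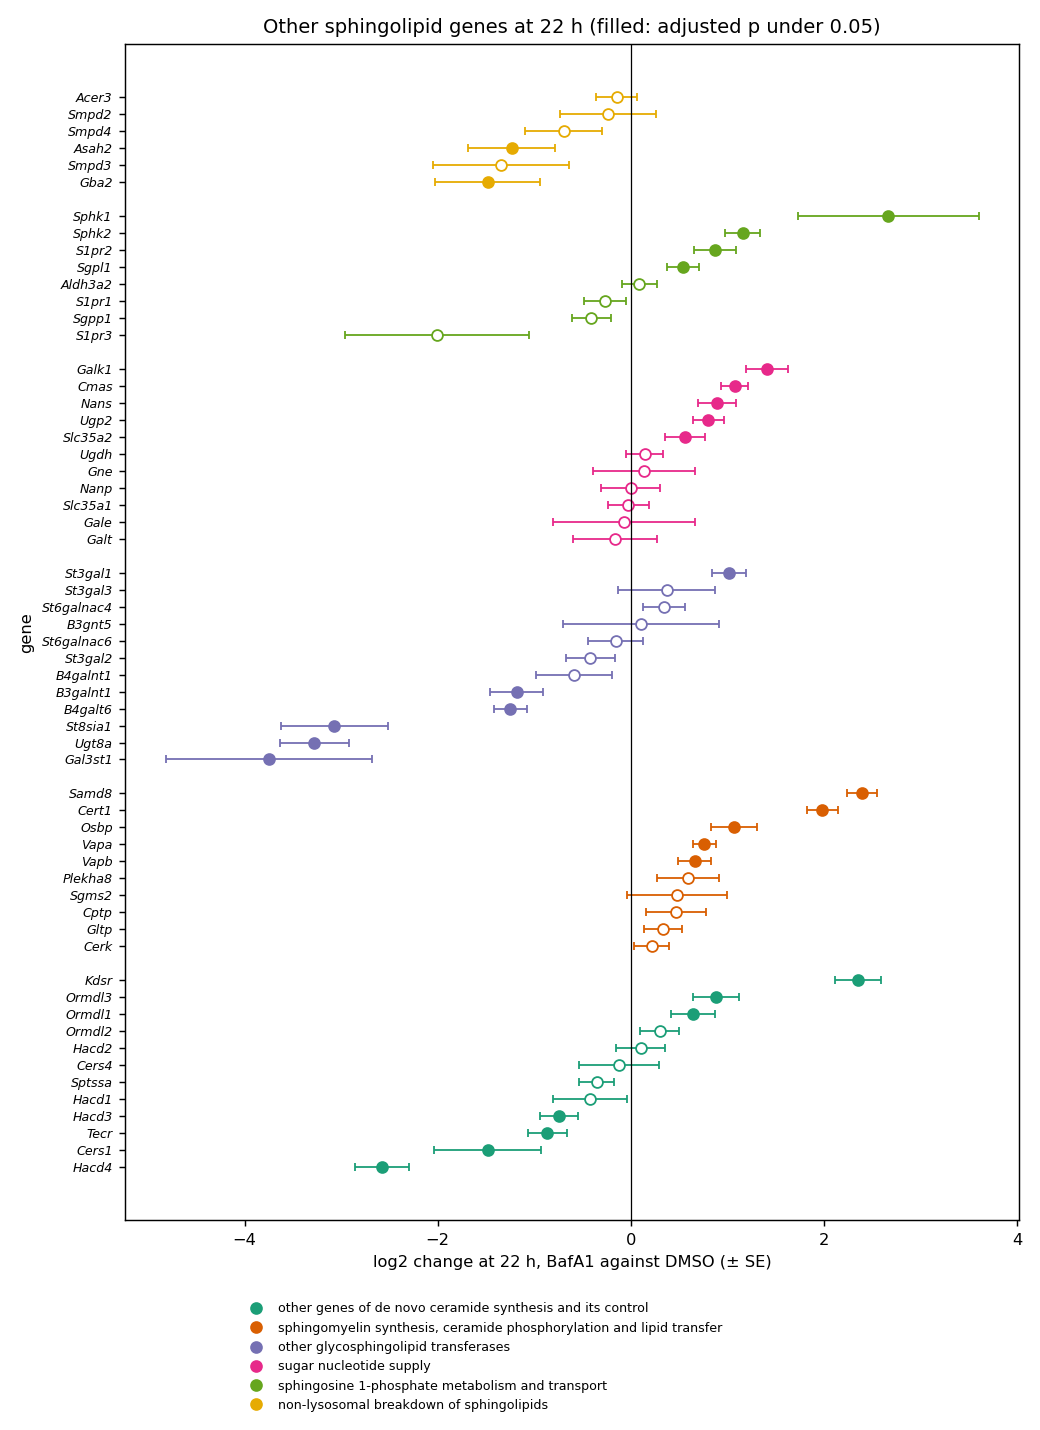
Log2 change at 22 h of the 59 other tested sphingolipid genes, BafA1 against DMSO, ± SE, grouped and coloured by list (filled points: adjusted p under 0.05). Samd8 (2.39) and Kdsr (2.35) stand far to the right, while Hacd4 (-2.58) and most called glycosphingolipid transferases lie to the left; Gal3st1 and Sphk1 have wide bars.

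By the likeness of their 8 group means of log2 CPM, computed over 7005 genes, the genes most like B4galt5 were Npc1 (Pearson r = 0.998), Gpr137b (0.997) and Peds1 (0.997). Those most like St3gal5 were Selplg (0.998), Nrp1 (0.997) and Ptgs1 (0.995). For Degs1 they were Pld3 (0.995), Cstb (0.995) and Samd8 (0.994), the last of which is also among the other pathway genes. For Ugcg they were Larp4b (0.995), Spryd7 (0.993) and Lilrb4b (0.993), which has near-identical relatives that could share reads. For Sptlc1 they were Gtf2a1 (0.996), Snrnp27 (0.991) and Kcmf1 (0.990), and for Cers2 Cd9 (0.988), Rhoc (0.986) and Rab2a (0.983). These values describe 8 means that share libraries and scaling, and were picked as the highest of many.

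Markers of cell types fell in the same comparisons as St3gal5. The 10 microglial markers summed to 4949 to 7313 CPM in DMSO and 1783 to 2490 CPM with BafA1 at 22 h, and 8 of the 10 were called lower at 14 and at 22 h; none of them was at 0 in any group. The oligodendrocyte markers summed to 460 to 604 CPM in DMSO and 84.5 to 114 CPM with BafA1, with 4, 5 and 8 of 9 tested genes lower at 7, 14 and 22 h and Mog at 0 in the DMSO libraries of 22 h. The astrocyte markers were at 184 to 319 against 41.8 to 111 CPM (5 of 8 lower), the neuronal at 159 to 220 against 21.4 to 32.8 CPM (2 of 3 lower), and those of border macrophages at 97.2 to 129 against 25.0 to 37.9 CPM (2 of 2 lower). The fibroblast and vessel markers, at 22.4 to 77.8 against 11.2 to 56.6 CPM with 1 of 4 tested genes lower, overlapped, and Cldn5 was at 0 with BafA1. No marker of any list was called higher. In bulk RNA, fewer cells of a type and less RNA per cell cannot be told apart, and the part of these markers in the falls of St3gal5, Cers6, B4galt6 and Ugt8a was not tested.

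**Figure D5:**
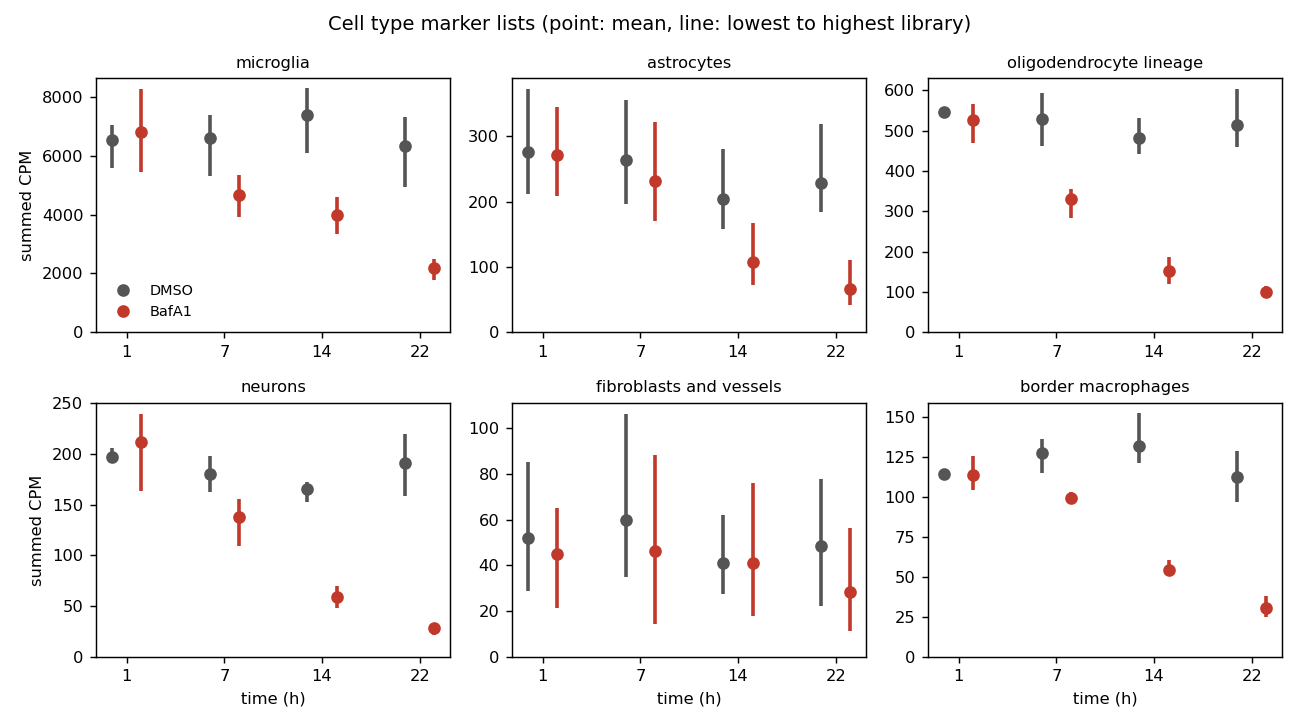
Summed CPM of the marker lists of 6 cell types at 1, 7, 14 and 22 h (points: group means; lines: lowest to highest of 3 libraries; grey DMSO, red BafA1). The microglial sum goes from 4949 to 7313 CPM in DMSO to 1783 to 2490 CPM with BafA1 at 22 h, and the sums of the other cell types except fibroblasts and vessels are also apart by then.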

How the data were processed

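Per the labels' protocols, 3′ tag libraries with molecular identifiers for the removal of PCR duplicates were sequenced as single reads of 75 bp. Salmon and the build GRCm39 were used per the submitters' processing notes. Salmon's version and the annotation release were not given in the sources used here. Both estimated counts per gene and log2 CPM were deposited by the authors. Of the estimated counts above 0, 37.1% were not whole, and all were rounded before testing. Recomputing log2 CPM gave the deposited log2 CPM to within 0.00121.

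Genes were kept by filterByExpr over the 8 groups (12648 of 56980; the rest held 0.699% of counts) and libraries were scaled by TMM. The test was edgeR's quasi-likelihood test (R 4.3.3 with edgeR 4.0.16 and limma 3.58.1) on the 24 libraries together with 1 coefficient per group, adjusted by Benjamini-Hochberg over all genes tested and called at an adjusted p under 0.05; intervals are at 95%. Contrasts were BafA1 against DMSO at each time, the change of that effect between successive times, treatment by time, and DMSO at each later time against 1 h. The procedure was tested on simulated counts that held no replicate effect. That test cannot show how a fit without the replicate block performs where replicates are paired. The replicate numbers of the labels paired the samples: deviations from group means correlated at 0.143 to 0.339 in all 12 same-numbered pairs and at -0.303 to 0.114 in 24 others. The fit has no replicate block. For the members, and for listed genes against DMSO, blocked values stand beside the results whose call they change. They also stand beside the counts they move by over 1.5 times.

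All members are named, and so are the listed genes whose call against DMSO the replicate block changed. Up to 4 called genes of each other list and time could be named, those with the largest change, and for members called at 2 or more times the 3 genes most alike in their 8 group means, among tested genes whose mean log2 CPM was 4 or more; those for Sgms1 are not reported here. Members and lists were chosen with earlier results of these data known. Values near 3 counts in a library are at the floor, which covers counting error only. Alternatives were RLE and upper-quartile scaling, no filter and a filter of 10 CPM in 3 libraries, DESeq2 1.42.0, limma-voom, fits of 6 libraries, thinning to the shallowest library, the block, and leaving out each library. Promoter sequences are RefSeq's (GRCm38.p6) and were matched by symbol for all 10 members.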

Additional observations from a re-analysis of the deposited data

Results flagged for a closer look

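The BafA1 effect differed between times in 9 of the 10 members by edgeR's F test of treatment by time. The adjusted p was 1.97e-09 for B4galt5, 3.71e-05 for St3gal5, 4.4e-05 for Degs1, 0.00064 for Ugcg, 0.00491 for Cers2, 0.0175 for Sptlc1, 0.0201 for Cers5, 0.0272 for Sptlc2 and 0.0272 for Cers6. Between successive times the effect differed for B4galt5 from 1 to 7 h (2.88 on the log2 scale), for Cers5 from 7 to 14 h (0.71) and for Cers6 from 14 to 22 h (-1.07), between 0.33 at 14 h, which was not called, and -0.74 at 22 h. The F test lost Cers5 and Cers6 without the filter on low counts (adjusted p = 0.135 and 0.123), and Sptlc1, Cers5 and Cers6 in thinned libraries (0.0785, 0.082 and 0.134). The steps of Cers5 (0.123 and 0.0826) and Cers6 (0.105 and 0.167) were lost in the same fits.

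Among the other sphingolipid genes, the effect differed between successive times in 4. These were the ceramide carrier Cert1 from 1 to 7 h (1.64 ± 0.24, adjusted p = 0.000235 by edgeR's quasi-likelihood test), the ceramide phosphoethanolamine synthase Samd8 from 7 to 14 h (0.89 ± 0.21, 0.0251), the galactosylceramide synthase Ugt8a from 7 to 14 h (-2.28 ± 0.42, 0.00302) and the sphingosine kinase Sphk2 from 14 to 22 h (0.98 ± 0.26, 0.045).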

How the results depend on the processing

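No member or listed gene reversed its direction in a called comparison under any alternative. Over the alternatives, the members' 180 values per time kept their side of the threshold in 180, 167, 175 and 172 at 1, 7, 14 and 22 h. These values pool members that were called with members that were not. Of the members called at 7 h, B4galt5 kept its call under every alternative, while Degs1, Ugcg and Sgms1 each lost theirs in at least 1. Without the filter on low counts, 26 genes were called at 1 h, 1 member and not 2 fell at 22 h, 1 listed gene and not 3 fell at 7 h, and 0 members differed from 14 to 22 h; the median of all genes moved by 0.13 at 22 h. With upper-quartile scaling 1263 genes were higher and 1819 lower at 14 h (1526 and 1528 with TMM), and 1933 and 3107 at 22 h (2270 and 2780). With libraries thinned to the shallowest, the listed genes that fell numbered 1, 4 and 6 at 7, 14 and 22 h, and 0 members differed from 7 to 14 h and from 14 to 22 h. In fits of only the 6 libraries 1 listed gene fell at 7 h, with the stricter filter 7 fell at 22 h, and with DESeq2 2 members differed from 7 to 14 h (share of all genes not counted). With the replicate block 1555 genes were called at 7 h, 1 member fell at 7 h, 5 members differed from 7 to 14 h (share of all genes not counted), and 5 and 11 listed genes fell at 7 and 14 h. All genes called were then 4166 at 14 h and 5980 at 22 h, and listed genes 5, 15 and 19 higher at 7, 14 and 22 h and 13 lower at 22 h. The block also called Sptlc2 at 22 h (0.47) and changed no other call of a member against DMSO.

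Leaving out 1 library gave 573 to 804 genes at 7 h, with the lowest without DMSO replicate 1, 3 to 4 members higher at 7 h, 7 to 8 at 14 h and 6 at 22 h. Listed genes numbered 1 to 3 lower at 7 h, and 9 to 13 higher and 4 to 8 lower at 14 h. Leaving out all libraries of 1 replicate number was chosen after seeing the data: without those numbered 2, 2 members rose at 7 h and 5 at 14 h and 1 fell at 22 h, and without those numbered 3, 2 rose at 7 h. Fewer samples bring wider errors; the cause of the other shifts was not tested. Depth limits Gal3st1, Sphk1, Cers1 and St8sia1, whose libraries held few counts.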
